A study of Mus musculus with 8 samples.

Results

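Aldehyde dehydrogenases (ALDH enzymes) oxidise aldehydes to carboxylic acids with NAD or NADP, and 10 of their genes were described here: Aldh1a1, Aldh1a3, Aldh1a7, Aldh1b1, Aldh2, Aldh3a2, Aldh3b1, Aldh6a1, Aldh7a1 and Aldh9a1. They were looked up by gene symbol, from a list chosen with earlier results of these data known. All 10 were found among the 37417 genes of the deposited table, each on 1 row. RNA sequencing of mouse epididymal fat gave 4 KO libraries and 4 WT libraries. The KO males carried floxed Atg3 (Atg3 flox/flox) and an Adiponectin-Cre ERT2 transgene, a Cre recombinase driven by the adiponectin promoter of adipocytes and switched on by tamoxifen; going by the series' title, Atg3 was deleted once development was over. The WT males are labelled wild type, and the labels do not say whether they carried floxed alleles or Cre. Both groups are of strain C57Bl/6, ate chow and, per the labels, were treated with tamoxifen; no age is given.

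Several of these enzymes have defined places in fat. ALDH1A1 and ALDH1A3 turn retinaldehyde into retinoic acid, the ligand of nuclear receptors that restrain or promote fat cell formation. ALDH2, ALDH3A2 and ALDH3B1 act on aldehydes that arise from lipids, including those left by lipid peroxidation, while ALDH6A1, ALDH7A1 and ALDH9A1 are known above all from amino acid, choline and carnitine metabolism. ATG3 is the conjugating enzyme that joins LC3 proteins to membrane lipid in autophagy, the pathway by which cells deliver their contents to lysosomes.

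Aldh1a7 is a close rodent paralogue of Aldh1a1, and short reads can be shared between them, so their sequences are shown first. In the GENCODE M21 transcripts both coding sequences are 1503 bases long and 91.6% of positions are the same. Of the 1454 windows of 50 bases, the length of a read, in the coding sequence, 151 (10.4%) hold no difference. The stretch of 90 coding bases (310 to 399, counted from the first base of the start codon, both on chromosome 19) with the most differences holds 19, which are in capitals:
Aldh1a1: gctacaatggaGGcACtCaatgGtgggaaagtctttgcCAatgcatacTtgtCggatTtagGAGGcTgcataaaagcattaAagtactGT
Aldh1a7: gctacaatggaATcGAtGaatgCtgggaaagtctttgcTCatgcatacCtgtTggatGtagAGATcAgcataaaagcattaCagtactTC

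An earlier stretch of the same length (coding bases 226 to 315) holds 0 differences, so that a read inside it could belong to either gene:
Aldh1a1 and Aldh1a7: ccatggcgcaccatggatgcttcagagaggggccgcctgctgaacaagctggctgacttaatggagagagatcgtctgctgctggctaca

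The labels and file headers do not say how reads with more than 1 match were treated, so the counts of this pair are uncertain to that extent. Over the longest transcripts, 6.54% of the 50-base windows of Aldh1a1 and 7.49% of those of Aldh1a7 occur in the other gene. Aldh3b1 shares 9.55% of its windows with Aldh3b2 or Aldh3b3, its neighbours on the chromosome. Aldh2 shares 2.12% with the gene model Gm42879, and Aldh1a3, Aldh1b1, Aldh3a2 and Aldh9a1 share 0. Aldh7a1 shares 5.07% with Phax and Aldh6a1 5.79% with Ccdc176 (Bbof1 in GENCODE), genes that overlap them on the opposite strand. The 8 libraries held 4103 reads for Phax and 453 for Ccdc176, and no label or header says if reads were counted by strand.

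The libraries held 10986375 to 21688464 counted reads, and Atg3 RNA was 1.66-fold lower in KO fat, at 30.3 ± 1.84 CPM against 50.2 ± 4.34 CPM in WT fat (SD, n = 4 each; log2 fold change -0.73, edgeR adjusted p = 0.0168). The Atg3 libraries did not overlap, but the call was lost without KO2 (adjusted p = 0.0745), WT1 (0.0543) or WT4 (0.0705) and without both KO2 and KO3 (0.0989, log2 fold change -0.77). CPM is the read count scaled to library size. The 8 adipocyte markers summed to 19852 to 26093 CPM in KO and 20435 to 29825 CPM in WT libraries, which puts them high in every library. Several libraries stood apart. KO2 and KO3 were high in duct markers: the 12 markers of duct epithelium, among them Foxj1 and Pax8, came to sums of 34.5, 476, 485 and 43.8 CPM in KO1 to KO4, against 13.1, 20.7, 8.86 and 13.8 CPM in WT1 to WT4, and none of the 12 was at 0 in every library. Values without KO2 and KO3 are therefore given below, and these rest on KO1 and KO4, which stood apart in other ways. The 6 liver markers, mostly Alb, summed to 46.4, 15.9, 10.9 and 77.1 CPM in KO1 to KO4, against 8.86, 10.1, 24.9 and 10.5 CPM in WT1 to WT4. The 7 prostate and seminal vesicle markers, of which Sbp and Svs1 were at 0 in every library, summed to 67.9 CPM in KO1, nearly all of it Pbsn, and to 0 to 3.36 CPM in the other 7 libraries. WT1 had the most of the 7 lymphocyte markers, with 71.3 to 142 CPM in KO libraries, 264 CPM in WT1 and 62.8 to 110.1 CPM in WT2 to WT4. The 6 endothelial markers summed to 1221 to 1406 CPM in KO and 1455 to 1711 CPM in WT libraries. In bulk tissue, fewer cells of a type and less RNA per cell cannot be told apart.

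The ALDH pool of these fat pads was dominated by 3 genes: Aldh2, Aldh6a1 and Aldh1a1 together made up 73.6 to 80.1% of the summed FPKM of the 10 genes in KO and 79.4 to 81.9% in WT libraries. FPKM, the deposited unit, in which reads are scaled to exon length and library total, allows levels of different genes to be set side by side. In KO fat the mean levels were 222 ± 19.7 FPKM for Aldh2, 206 ± 34.8 for Aldh6a1 and 188 ± 17.3 for Aldh1a1, and the ranges of these neighbours in the order overlapped. In WT fat Aldh6a1 (204 ± 15.9 FPKM) and Aldh2 (199 ± 14.4 FPKM) overlapped, and Aldh1a1 stood below both at 139 ± 16.6 FPKM.

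Aldh1a7 came next in both genotypes, at 77.6 ± 19.4 FPKM in KO and 50.1 ± 13.6 FPKM in WT fat. Aldh9a1 averaged 33.4 ± 1.54 FPKM in KO and 32.8 ± 3.04 FPKM in WT fat, and Aldh7a1 21.9 ± 1.99 and 16.3 ± 2.28 FPKM in KO and WT fat. Aldh3a2, Aldh3b1 and Aldh1a3 formed a low group. In KO fat they averaged 14.5 ± 0.594, 12.3 ± 1.94 and 12.03 ± 2.84 FPKM in that order, and in WT fat 13.3 ± 0.237, 8.62 ± 1.04 and 11.97 ± 2.12 FPKM. Within this group the ranges of all neighbours in the order overlapped in both genotypes, and in WT fat that of Aldh3a2 also overlapped that of Aldh7a1. Aldh1b1, the mitochondrial relative of Aldh2, was close to the limit of measurement with 0.907 ± 0.0961 FPKM in KO and 0.801 ± 0.252 FPKM in WT fat, from 19 to 52 reads a library.

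The summed level of the 10 genes was 865, 812, 743 and 733 FPKM in KO1 to KO4, against 643, 659, 699 and 702 FPKM in WT1 to WT4. All 4 KO libraries were higher on this deposited scale, with a ratio of means of 1.17. With the library scaling used for the tests (TMM) the sums averaged 784 ± 65.7 in KO and 681 ± 60.3 in WT fat (SD, n = 4 each) and the groups overlapped, since KO3 at 706 lay below WT3 at 745 and WT4 at 710.3. In the make-up, Aldh1a1 held 23.9 ± 2.15% of the pool in KO and 20.5 ± 2.08% in WT fat. Aldh6a1 held 26.0 ± 2.34% and 30.2 ± 2.99% in KO and WT fat, and Aldh2 28.1 ± 0.799% and 29.5 ± 1.31%. The KO and WT libraries overlapped for each of these shares. No test was made of these shares.

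**Figure D1:**
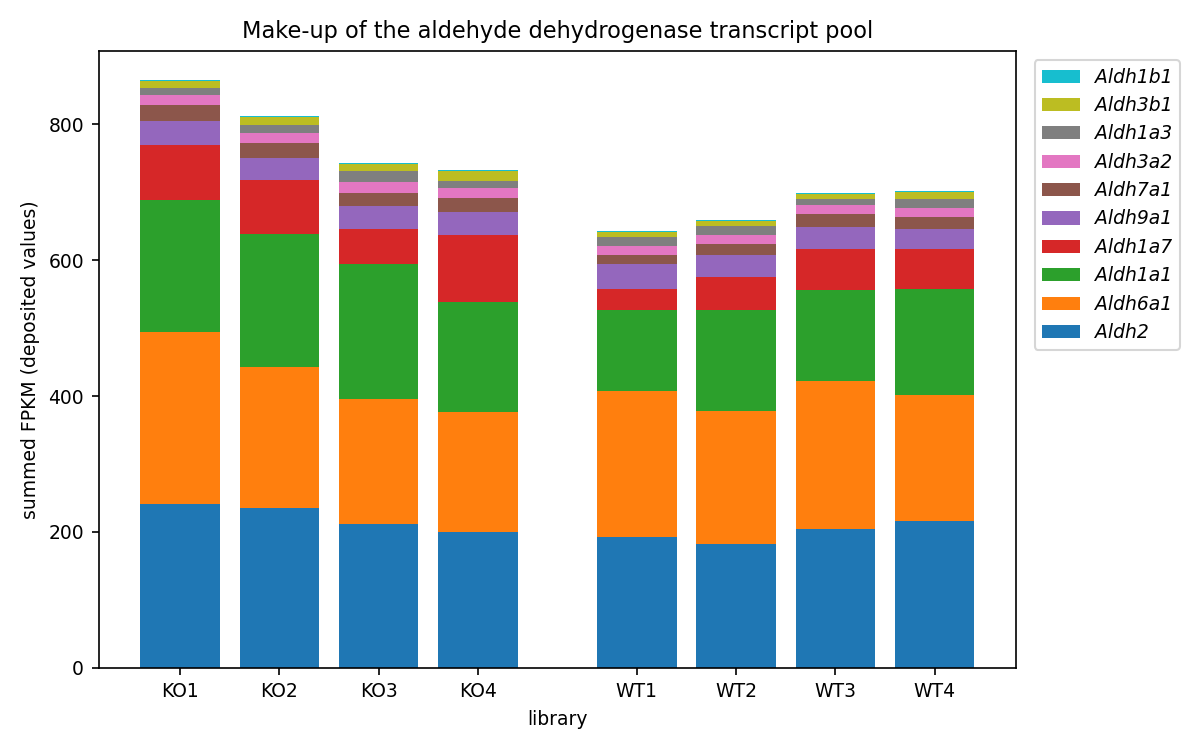
Summed FPKM (deposited values) of the 10 aldehyde dehydrogenase genes in each library, stacked by gene, KO1 to KO4 on the left and WT1 to WT4 on the right. Aldh2, Aldh6a1 and Aldh1a1 fill most of every bar, and the KO bars end between 733 and 865 FPKM, above the WT bars at 643 to 702 FPKM.

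The question of the design is what loss of Atg3 in adipocytes changed. No ALDH gene of the 10 passed the test: edgeR's quasi-likelihood test, fitted to all 14800 genes with enough reads and adjusted by the Benjamini-Hochberg method, called 0 of 10, while it called 60 genes in all (0.405%). DESeq2 called 1 of the 10, Aldh1a1, and limma-voom 0. At an unadjusted p under 0.05, 3 of 10 were higher in KO fat (Aldh1a1, Aldh3b1 and Aldh7a1) and 0 lower, against 8.52% of all genes tested that were higher at that level. The KO libraries lay above all WT libraries without overlap for Aldh1a1 and Aldh3b1, 2 of 10, against 4.32% of all genes tested. The log2 fold change was above 0 for 8 of 10 genes, with a median of 0.16. Over all genes 47.6% were above 0 and the median was -0.01. The 10 genes were chosen with earlier results of these data known, so these shares are a description and not a test. The libraries are limited in what they can call: the count of 60 called genes was 290 without KO1, 0 without KO2, 23 without KO3, 44 without KO4, and 7, 4, 20 and 8 without WT1, WT2, WT3 and WT4. DESeq2 called 810 genes and limma-voom 45.

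**Figure D2:**
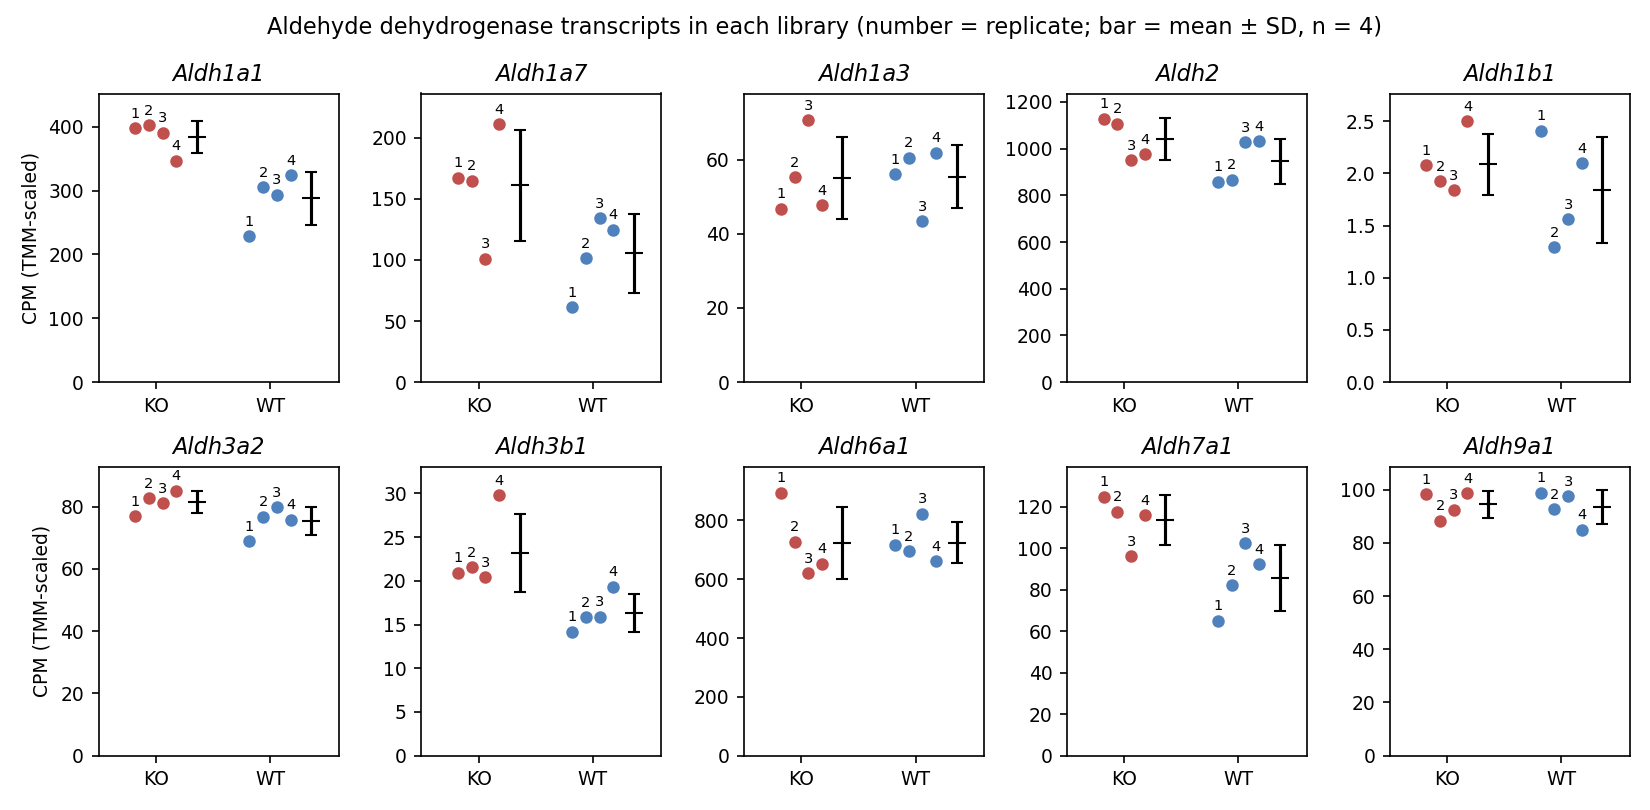
CPM (TMM-scaled) of each of the 10 genes, KO on the left and WT on the right of each panel; points are libraries numbered by replicate and the bar beside them is the mean ± SD (n = 4). The KO points of Aldh1a1 and Aldh3b1 lie above all WT points, and in the other 8 panels the groups overlap.

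Among the retinaldehyde dehydrogenases, Aldh1a1 was higher in each KO library, and its relative Aldh1a3 showed no detectable difference. Aldh1a1 (ENSMUSG00000053279, chromosome 19, 20601961 to 20643462, plus strand, mm10) is the cytosolic enzyme known in mouse fat for its part in retinoic acid supply. It had 397, 402, 390.4 and 347 CPM in KO1 to KO4, against 229, 305, 294 and 324 CPM in WT1 to WT4. The lowest KO library (KO4) stood above the highest WT library (WT4). WT1 was the lowest of all, as it was for Aldh1a7, Aldh2, Aldh3a2, Aldh3b1 and Aldh7a1. The means were 384 ± 25.3 CPM in KO and 288 ± 41.4 CPM in WT fat (SD, n = 4 each), a 1.33-fold difference that missed the threshold (log2 fold change 0.41, SE 0.12, 95% interval 0.15 to 0.68, edgeR adjusted p = 0.148). DESeq2 placed it past the threshold at an adjusted p of 0.0158, and the adjusted p ran from 0.0158 to 0.580 over the alternatives. The log2 fold change of Aldh1a1 was 0.38 without KO2 and KO3, 0.40 without KO1, 0.46 without KO4 and 0.32 without WT1, the library with the most lymphocyte marker RNA. The part of the liver, prostate and lymphocyte markers in the values of the ALDH genes was not tested.

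Aldh1a7 (ENSMUSG00000024747, chromosome 19, 20692953 to 20727562, minus strand), the paralogue whose sequence is shown above, had the largest fold change of the 10 genes and one of the widest spreads. It had 167, 165, 100.9 and 211 CPM in KO1 to KO4, against 61.2, 101.5, 134 and 125 CPM in WT1 to WT4. The groups overlapped: KO3 lay below WT2, WT3 and WT4, KO4 was the highest library and WT1 the lowest. Its log2 fold change was 0.61 (95% interval -0.00 to 1.22, edgeR adjusted p = 0.310, with a range of 0.198 to 0.543 over the alternatives). It was 0.85 without KO2 and KO3, 0.59 without KO1, 0.45 without KO4 and 0.43 without WT1. Over the KO libraries the sum of the adipocyte markers ran in the same order as this gene, from KO4 through KO1 and KO2 down to KO3. Over the WT libraries both were highest in WT3 and lowest in WT1, with WT2 and WT4 in opposite order. Between genotypes 7 of the 8 markers had a log2 fold change below 0 (median -0.29), and that of Aldh1a7 was above 0. The marker sum was 19995 CPM in KO2 and 19852 CPM in KO3. The part of the adipocyte markers in the values of Aldh1a7 was not tested.

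Since reads may have been split between the paralogues, their counts were also added. The sum was 564, 567, 491 and 558 CPM in KO1 to KO4, against 290.2, 407, 428 and 449 CPM in WT1 to WT4. In the sum all KO libraries were above all WT libraries, as for Aldh1a1 alone, and the log2 fold change was 0.47 (SE 0.14, edgeR adjusted p = 0.162). The FPKM ratio of Aldh1a7 to Aldh1a1 was 0.418, 0.407, 0.257 and 0.604 in KO1 to KO4, against 0.266, 0.330, 0.454 and 0.382 in WT1 to WT4, so the balance of the pair overlapped between genotypes.

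Aldh1a3 (ENSMUSG00000015134, chromosome 7, 66390892 to 66427517, minus strand), which also makes retinoic acid, had 46.8, 55.3, 70.7 and 47.6 CPM in KO1 to KO4, against 56.1, 60.5, 43.4 and 61.8 CPM in WT1 to WT4. KO3 was the highest and WT3 the lowest of the 8 libraries, and the groups overlapped. Its log2 fold change was -0.01 with a 95% interval of -0.36 to 0.34 (edgeR adjusted p = 0.983). Its direction was not fixed. Without KO2 and KO3, the libraries high in duct markers, the log2 fold change was -0.22, and with upper quartile scaling it was 0.0046. The 6 mesothelial markers summed to 185, 179, 342 and 111 CPM in KO1 to KO4, against 127, 245, 65.5 and 190 CPM in WT1 to WT4. As for Aldh1a3, KO3 was the highest and WT3 the lowest library. The part of the duct and mesothelial markers was not tested.

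The mitochondrial pair showed no detectable difference. Aldh2 (ENSMUSG00000029455, chromosome 5, 121566027 to 121593824, minus strand), which clears acetaldehyde and 4-hydroxynonenal, had 1129, 1106, 949.7 and 977 CPM in KO1 to KO4, against 858, 867, 1027 and 1032 CPM in WT1 to WT4. KO1 and KO2 were above all WT libraries and KO3 and KO4 lay between the WT values, so the groups overlapped. With a log2 fold change of 0.14, the interval was -0.12 to 0.39 at 95% (edgeR adjusted p = 0.595). Aldh1b1 (ENSMUSG00000035561, chromosome 4, 45799022 to 45804604, plus strand) had 2.08, 1.93, 1.84 and 2.50 CPM in KO1 to KO4, against 2.41, 1.29, 1.56 and 2.10 CPM in WT1 to WT4. With so few reads its 95% interval was wide (log2 fold change 0.19, -0.38 to 0.76, edgeR adjusted p = 0.755), and a difference was not detectable at this depth.

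Of the enzymes for fatty and lipid-derived aldehydes, Aldh3b1 was higher in each KO library and Aldh3a2 differed little. Aldh3b1 (ENSMUSG00000024885, chromosome 19, 3913493 to 3929761, minus strand), a membrane-bound enzyme for medium- and long-chain aldehydes, had 20.9, 21.6, 20.4 and 29.8 CPM in KO1 to KO4, against 14.2, 15.8, 15.9 and 19.3 CPM in WT1 to WT4. The groups did not overlap, but WT4 came close to KO3, and KO4 stood far above the other KO libraries. The means were 23.2 ± 4.43 CPM in KO and 16.3 ± 2.15 CPM in WT fat (SD, n = 4 each), a 1.42-fold difference that missed the threshold (log2 fold change 0.51, SE 0.15, 95% interval 0.16 to 0.85, edgeR adjusted p = 0.166, with a range of 0.0588 to 0.351 over the alternatives). The log2 fold change was 0.36 without KO4, 0.55 without KO1, 0.45 without WT1 and 0.65 without KO2 and KO3.

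Aldh3a2 (ENSMUSG00000010025, chromosome 11, 61223417 to 61267464, minus strand), the fatty aldehyde dehydrogenase of the endoplasmic reticulum, was among the steadiest of the 10 genes. It had 76.9, 82.6, 81.2 and 85.1 CPM in KO1 to KO4, against 69.0, 76.8, 79.9 and 75.8 CPM in WT1 to WT4. KO1 lay below WT3 on this scale, while on the deposited FPKM scale the KO libraries (13.7 to 15.1 FPKM) were all above the WT libraries (13.0 to 13.6 FPKM). Aldh3a2 had a log2 fold change of 0.11 with a 95% interval of -0.05 to 0.27 (edgeR adjusted p = 0.472).

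Of the enzymes of amino acid and carnitine metabolism, Aldh7a1 was higher in most KO libraries, and Aldh6a1 and Aldh9a1 showed no detectable difference. Aldh7a1 (ENSMUSG00000053644, chromosome 18, 56509687 to 56572951, minus strand), which oxidises aminoadipic semialdehyde in lysine breakdown, had 125, 117, 96.2 and 116 CPM in KO1 to KO4, against 65.1, 82.1, 102 and 92.1 CPM in WT1 to WT4. KO3 lay below WT3 and the other 3 KO libraries were above all WT libraries; on the deposited FPKM scale the groups did not overlap (19.4 to 24.1 FPKM in KO and 13.3 to 18.5 FPKM in WT libraries). The means were 114 ± 12.2 CPM in KO and 85.4 ± 15.8 CPM in WT fat (log2 fold change 0.41, SE 0.14, 95% interval 0.09 to 0.73, edgeR adjusted p = 0.202, with a range of 0.0991 to 0.484 over the alternatives). The log2 fold change was 0.51 without KO2 and KO3, 0.36 without KO1, 0.40 without KO4 and 0.30 without WT1.

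Aldh6a1 (ENSMUSG00000021238, chromosome 12, 84430723 to 84450950, minus strand), the methylmalonate semialdehyde dehydrogenase of valine and thymine breakdown, had 894, 727, 619.8 and 653 CPM in KO1 to KO4, against 717, 695, 822 and 661 CPM in WT1 to WT4. KO1 was the highest library and KO3 the lowest, so the KO libraries spanned the whole WT range. Its log2 fold change was -0.00 with a 95% interval of -0.31 to 0.30 (edgeR adjusted p = 0.998), and its sign turned under several scalings and left-out libraries.

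Aldh9a1 (ENSMUSG00000026687, chromosome 1, 167349991 to 167368530, plus strand), which oxidises trimethylaminobutyraldehyde on the way to carnitine, had 98.3, 88.3, 92.4 and 98.8 CPM in KO1 to KO4, against 98.8, 92.7, 97.4 and 85.0 CPM in WT1 to WT4. The ranges were nearly the same. Its log2 fold change was 0.02 with a 95% interval of -0.15 to 0.18 (edgeR adjusted p = 0.942), the narrowest interval of the 10 genes after that of Aldh3a2.

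**Figure D3:**
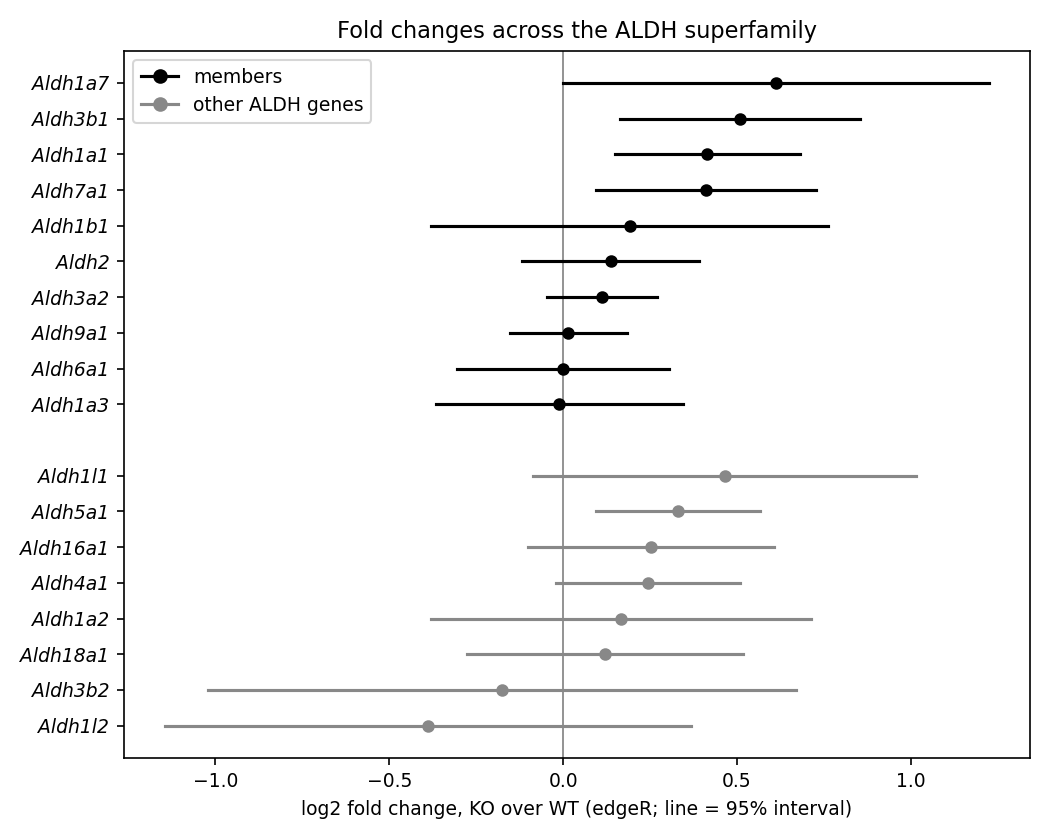
Log2 fold change of KO over WT fat (edgeR, x axis) with its 95% interval for the 10 genes described (black) and the 8 other ALDH genes tested (grey). The intervals of Aldh3b1, Aldh1a1, Aldh7a1 and Aldh5a1 lie above 0 before adjustment for the number of genes tested, and the other 14 span 0.

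The other genes of the ALDH superfamily were read from the same fit. Of 11 other symbols 10 were found and 8 had enough reads; edgeR called 0 of 8, as did DESeq2 and limma-voom, and 1 was at an unadjusted p under 0.05, a level that 16.2% of all genes tested reached in either direction. The log2 fold change was above 0 for 6 and below 0 for 2, with a median of 0.21. Aldh5a1, the succinic semialdehyde dehydrogenase of GABA breakdown, had 52.1, 49.8, 42.2 and 49.3 CPM in KO1 to KO4, against 32.3, 42.4, 40.8 and 38.0 CPM in WT1 to WT4, and only KO3 lay within the WT range (log2 fold change 0.33, edgeR adjusted p = 0.177).

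Aldh1l1, the cytosolic formyltetrahydrofolate dehydrogenase, had 244, 261, 151 and 306 CPM in KO1 to KO4, against 123, 172, 239.5 and 163 CPM in WT1 to WT4. As for Aldh1a7, KO4 was the highest and WT1 the lowest library and the groups overlapped (log2 fold change 0.46, edgeR adjusted p = 0.391). The log2 fold changes were 0.24 for Aldh4a1, an enzyme of proline breakdown, 0.25 for Aldh16a1, which overlaps Pih1d1 on the opposite strand, 0.17 for Aldh1a2, the third retinaldehyde dehydrogenase, and 0.12 for Aldh18a1, a proline synthesis enzyme. They were -0.18 for Aldh3b2 and -0.39 for Aldh1l2, the mitochondrial counterpart of Aldh1l1, and the edgeR adjusted p of these 6 genes ran from 0.350 to 0.856.

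Aldh3a1 and Aldh8a1 had too few reads for the test. Aldh3a1 had 14 reads in KO and 10 in WT libraries, a depth-scaled ratio of 1.27 (95% counting interval 0.524 to 3.19). Aldh8a1, which was chosen for its counts after these were seen, had 3, 6, 5 and 7 reads in KO1 to KO4, against 0, 0, 1 and 0 reads in WT1 to WT4. Each KO library had more reads than any WT library, and the ratio of 19.01 had a 95% interval of 3.06 to 786, which covers counting error only.

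The genes whose routes make or use these aldehydes were read from lists. Of 21 tested genes of retinoid uptake, oxidation, binding, breakdown and receptors edgeR called 0, DESeq2 1 (Rxrg) and limma-voom 0, and 2 were at an unadjusted p under 0.05, a smaller share than the 16.2% of all genes tested; the median log2 fold change was -0.03. Rxrg, a retinoid X receptor, had 11.8, 9.41, 7.83 and 11.6 CPM in KO1 to KO4, against 16.1, 16.3, 18.2 and 18.8 CPM in WT1 to WT4, so all KO libraries were below all WT libraries (log2 fold change -0.77, edgeR adjusted p = 0.0775). Without KO2 and KO3, the lowest pair, it was -0.56. Rarb, the retinoic acid receptor beta, averaged 3.54 ± 0.725 CPM in KO and 5.76 ± 1.87 CPM in WT fat with overlap (log2 fold change -0.70, adjusted p = 0.248). Adh1, an alcohol dehydrogenase that oxidises retinol, averaged 249 ± 29.9 CPM in KO and 200.1 ± 42.4 CPM in WT fat with overlap (log2 fold change 0.32, edgeR adjusted p = 0.380). Without KO2 and KO3 the log2 fold changes of Rarb and Adh1 were -0.48 and 0.19.

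Of the 3 tested alcohol dehydrogenases edgeR called 0, DESeq2 1 (Adhfe1) and limma-voom 0 (median log2 fold change 0.19). At an unadjusted edgeR p under 0.05 were 2 of 3, in either direction, against 16.2% of all genes tested. Adhfe1, which oxidises 4-hydroxybutyrate, averaged 154 ± 18.2 CPM in KO and 208 ± 26.7 CPM in WT fat without overlap (log2 fold change -0.44, edgeR adjusted p = 0.140). Adh5, the formaldehyde-clearing class III enzyme, averaged 126 ± 5.76 CPM in KO and 110.1 ± 9.79 CPM in WT fat with overlap (log2 fold change 0.19, edgeR adjusted p = 0.289). Without KO2 and KO3 the log2 fold changes of Adhfe1 and Adh5 were -0.32 and 0.20.

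In valine and thymine breakdown, the routes of ALDH6A1, 1 of 16 tested genes rose and 0 fell by edgeR, with a median log2 fold change of -0.04. DESeq2 called 3 (Dpyd and Abat, higher, and Dbt, lower) and limma-voom 1. The share called by edgeR over all genes tested was 0.405%. At an unadjusted edgeR p under 0.05 were 5 of 16, in either direction, against 16.2% of all genes tested. Dpyd, the first enzyme of thymine and uracil breakdown, rose 1.70-fold, with 53.1, 59.6, 74.0 and 53.9 CPM in KO1 to KO4, against 37.7, 32.0, 36.5 and 35.5 CPM in WT1 to WT4 (log2 fold change 0.76, SE 0.12, edgeR adjusted p = 0.0360). All KO libraries were above all WT libraries, and KO3 and KO2, high in duct markers, were the highest; the part of these markers was not tested. The call was lost without KO2 (adjusted p = 0.119), WT1 (0.0679), WT2 (0.130), WT3 (0.0887) or WT4 (0.113) and without both KO2 and KO3 (0.108). Dbt, a subunit of the branched-chain keto acid dehydrogenase, averaged 70.9 ± 9.45 CPM in KO and 98.7 ± 7.61 CPM in WT fat without overlap (log2 fold change -0.48, edgeR adjusted p = 0.0992). Abat, the GABA transaminase, which also acts in valine and thymine breakdown, averaged 126 ± 38.7 CPM in KO and 65.3 ± 21.2 CPM in WT fat without overlap (log2 fold change 0.95, edgeR adjusted p = 0.147). Without KO2 and KO3 the log2 fold changes of Dbt and Abat were -0.42 and 1.17.

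In lysine breakdown, choline oxidation and carnitine synthesis, the routes of ALDH7A1 and ALDH9A1, 1 of 8 tested genes rose and 0 fell by edgeR. Over all genes tested 0.405% were called, and the median log2 fold change of the list was 0.19. At an unadjusted edgeR p under 0.05 were 2 of 8, in either direction, against 16.2% of all genes tested. The 1 gene called was Aass, which DESeq2 also called, and limma-voom called 0. Aass, the enzyme that opens lysine breakdown upstream of ALDH7A1, had 2.92, 8.08, 9.06 and 5.62 CPM in KO1 to KO4, against 0.946, 0.999, 1.23 and 1.05 CPM in WT1 to WT4 (6.05-fold, log2 fold change 2.60, edgeR adjusted p = 0.0281). All KO libraries were higher, and KO2 and KO3, the libraries high in duct markers, were the highest. Without KO2 and KO3 its log2 fold change of 2.03 no longer passed (adjusted p = 0.106), as it was without KO2 (0.0979), KO3 (0.0563) or any WT library (0.0672 to 0.111); the part of the duct markers was not tested. Dhtkd1, a dehydrogenase further down the lysine route, and Sardh, the sarcosine dehydrogenase of choline breakdown, had log2 fold changes of -0.40 and 0.42 (edgeR adjusted p = 0.243 and 0.392). Without KO2 and KO3 these were -0.19 and 0.65.

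Of 13 tested rows of genes that give rise to fatty aldehydes edgeR called 0, DESeq2 2 (Acer2 and Agps) and limma-voom 0, and 2 were at an unadjusted p under 0.05, close to the 16.2% of all genes tested (median log2 fold change -0.01). Agps, an ether lipid synthesis enzyme, averaged 44.6 ± 1.07 CPM in KO and 53.6 ± 3.30 CPM in WT fat without overlap (log2 fold change -0.26, edgeR adjusted p = 0.135). Acer2, a ceramidase of which the file holds a second overlapping row, and Sphk1, a sphingosine kinase, had log2 fold changes of -0.65 and 0.90 (edgeR adjusted p = 0.137 and 0.321). Without KO2 and KO3 the log2 fold changes of Agps, Acer2 and Sphk1 were -0.27, -0.81 and 0.06.

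In glutathione and reductase routes that dispose of lipid aldehydes without oxidation by ALDH, 2 of 11 tested genes rose and 0 fell by edgeR. Over all genes tested 0.405% were called, and the median log2 fold change of the list was 0.25. At an unadjusted edgeR p under 0.05 were 7 of 11, in either direction, against 16.2% of all genes tested. The list was chosen with earlier results of these data known. DESeq2 called 3 (Cbr1, Cbr3 and Gsta3) and limma-voom 2. Cbr3, a carbonyl reductase, had 26.2, 28.2, 23.6 and 25.2 CPM in KO1 to KO4, against 9.20, 8.17, 6.07 and 10.4 CPM in WT1 to WT4, with a wide gap between the genotypes (3.04-fold, edgeR adjusted p = 0.0168). Gsta3, a glutathione S-transferase, had 627, 524, 347 and 517 CPM in KO1 to KO4, against 133, 156, 229 and 188 CPM in WT1 to WT4, again without overlap (2.85-fold, edgeR adjusted p = 0.0281). The log2 fold changes without KO2 and KO3 were 1.61 and 1.71, with both calls lost (adjusted p = 0.0892 for each). The call of Cbr3 was lost without KO2 (0.0745) or WT2 (0.0506), and that of Gsta3 without KO2 (0.113), KO4 (0.0608), WT1 (0.0679), WT2 (0.116) or WT4 (0.101). Cbr1, the neighbouring carbonyl reductase, averaged 58.9 ± 4.72 CPM in KO and 45.3 ± 2.49 CPM in WT fat without overlap (log2 fold change 0.38, edgeR adjusted p = 0.0908, and log2 fold change 0.34 without KO2 and KO3).

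**Figure D4:**
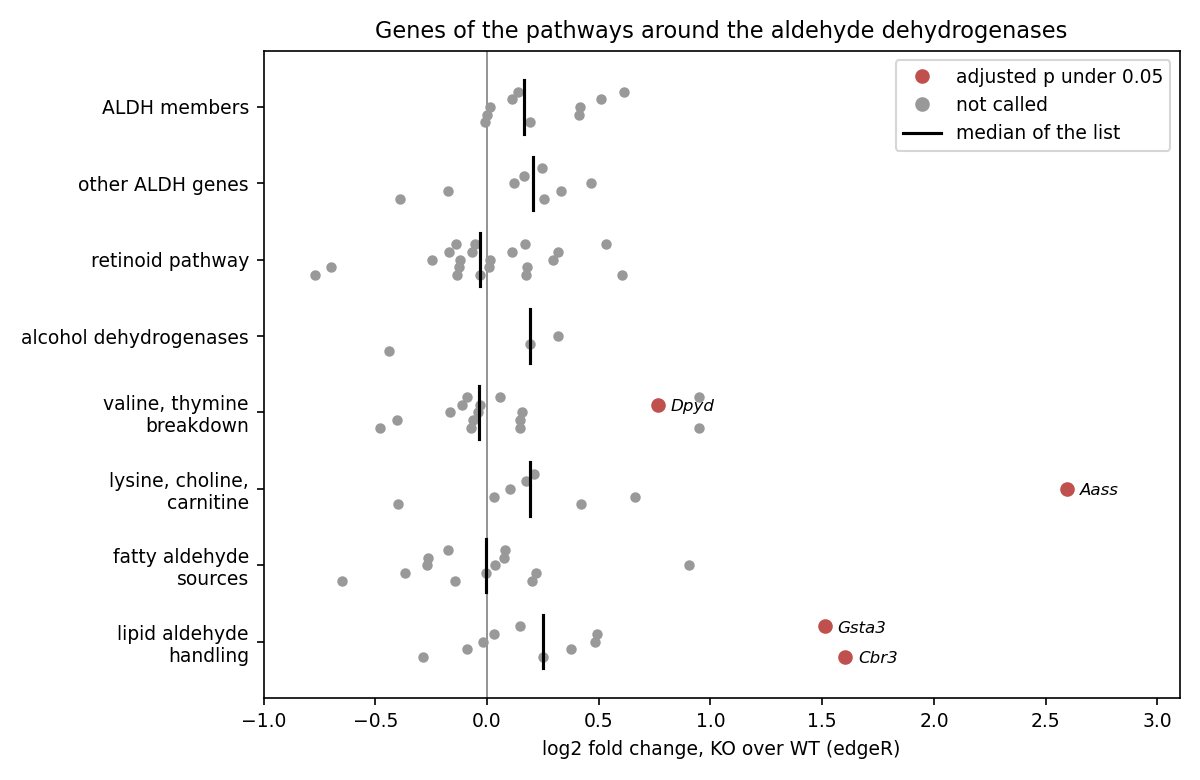
Log2 fold change of KO over WT fat (edgeR, x axis) for every tested gene of the 10 ALDH genes and of each list around them; red points passed an adjusted p of 0.05 and the vertical bar is the median of the list. The 4 red points, Aass, Cbr3, Gsta3 and Dpyd, lie to the right of 0, while the 10 ALDH genes lie between -0.01 and 0.61.

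The genes with the profile most like 3 of the members were sought among 9609 genes of at least 10 CPM, as the smallest root mean square difference in centred log2 CPM over the 8 libraries. For Aldh1a1 they were Glo1, the glyoxalase that handles methylglyoxal, with a difference of 0.0885, and Gkap1 with 0.0923. For Aldh2 they were Znhit6 (0.0403) and Cops4 (0.0462), and for Aldh3b1 Psmb5 (0.110), a proteasome subunit, and Fcor (0.112). Glo1 had 44.9, 46.2, 44.6 and 42.0 CPM in KO1 to KO4, against 27.3, 38.6, 40.4 and 37.6 CPM in WT1 to WT4. These genes were picked for their likeness over the same 8 libraries. A pattern shared with the member, such as the low WT1 value of Glo1 and Aldh1a1, therefore follows from the choice. A microRNA gene, Mir686, overlaps Psmb5 on the same strand.

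Promoters were read for the core of the antioxidant response element, the site of the stress factor NRF2, because several ALDH and reductase genes are known as its targets. The RefSeq table (GRCm38.p6, 250 bases before to 50 after each start) held 7 of the 10 genes; Aldh1a3, Aldh2 and Aldh7a1 were not among them. The letters TGACNNNGC, on either strand and with no second motif searched, occurred in 1 of 7, Aldh9a1, and in 3781 of 27025 genes in the table (14%). Bases 120 to 31 before the start are shown for that gene, with the match at base 87 before the start in capitals (chr1:167349871-167349960, plus strand), and, without a match, for the 2 genes whose KO and WT libraries did not overlap, Aldh1a1 (chr19:20601848-20601937, plus strand, the start nearest to the file's gene model) and Aldh3b1 (chr19:3929809-3929898, minus strand):
Aldh9a1: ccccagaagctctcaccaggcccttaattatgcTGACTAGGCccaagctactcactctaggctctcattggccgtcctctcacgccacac
Aldh1a1: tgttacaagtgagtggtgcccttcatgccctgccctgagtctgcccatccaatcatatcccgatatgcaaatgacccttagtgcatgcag
Aldh3b1: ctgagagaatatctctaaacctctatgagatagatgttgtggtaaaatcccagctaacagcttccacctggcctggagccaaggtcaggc

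The 1 gene with the letters, Aldh9a1, showed no detectable difference between genotypes, and the 2 genes without overlap lacked them in this window. A match is a run of letters and not a bound site, and no match says only that these letters are not in the window.

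The signs of the log2 fold changes were compared across the settings tried. All settings reuse the same 8 libraries or part of them, so a kept sign is no independent support. Over 18 alternatives in scaling, filter, test, block and left-out libraries, 7 of the 10 genes kept the sign of their log2 fold change in each: Aldh1a1, Aldh1a7, Aldh1b1, Aldh2, Aldh3a2, Aldh3b1 and Aldh7a1. The other 3, Aldh1a3, Aldh6a1 and Aldh9a1, had values near 0 and changed sign under at least 1 of them. Without KO2 and KO3 the median over the 10 genes was 0.25 and 0 of 10 were called.

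**Figure D5:**
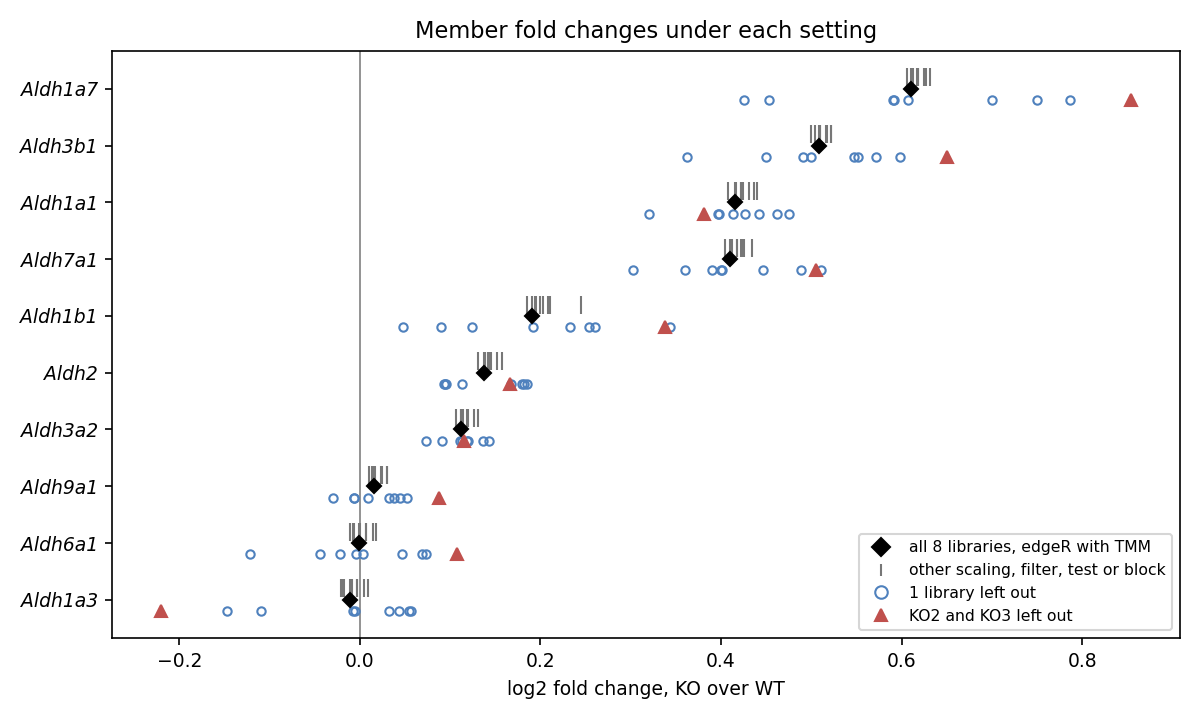
Log2 fold change of KO over WT (x axis) of each of the 10 genes under each setting: all libraries with edgeR (diamond), other scaling, filter, test or block (tick), 1 library left out (open circle) and KO2 and KO3 left out (triangle). All marks of Aldh1a7, Aldh3b1, Aldh1a1 and Aldh7a1 lie above 0.3, and those of Aldh9a1, Aldh6a1 and Aldh1a3 fall on both sides of 0.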

How the data were processed

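PolyA RNA of 8 fat pads was sequenced as strand-specific libraries (single reads, 50 cycles), per the labels' protocols; Novoalign 2.8.1, Picard and mm10 come from the submitters' processing notes. The authors deposited 1 table with a read count and an FPKM value per gene and library. Each of the 158499 FPKM values above 0 equals the count scaled to exon length and library total within 0.1%. Counting program, annotation and strand use: not given in the sources used here.

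Counts were tested with edgeR 4.0.16 in R 4.3.3: filterByExpr (minimum count 10; 14800 of 37417 genes kept), TMM scaling, quasi-likelihood fit of genotype alone, Benjamini-Hochberg adjustment over all genes tested, calls at 0.05. CPM are TMM-scaled; errors are SD over libraries. Whether the libraries are of separate mice rests on the labels, and p-values set the difference between genotypes against the spread between these samples. DESeq2 1.42.0 and limma-voom (limma 3.58.1) were alternatives, with others given at the end. The script was tested on simulated data.

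Members, gene lists and marker lists were chosen with earlier results of these data known. Named were all 10 members, the other tested ALDH genes, Atg3, in each list the called genes or, with fewer than 3, the 3 with the lowest p, and the 2 genes most like Aldh1a1, Aldh2 and Aldh3b1. Shared sequence was counted as 50-base windows found in other GENCODE M21 genes, on either strand. Depth limits the precision of low genes; counting intervals are exact and cover counting error only. The same replicate number gave correlations of -0.254 to 0.184 between genotypes. The labels do not say if the numbers pair mice, and the main fit did not pair libraries.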

Additional observations from a re-analysis of the deposited data

Results flagged for a closer look

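In 84 groups of 4 libraries (42 named genes in each genotype) the highest or lowest library was set against the others by Dixon's test, and 5 values stood apart; chance gives about 1 in 20 groups. Aldh3b1 had 29.8 CPM in KO4, far above the other KO libraries at 20.4 to 21.6 CPM, and its log2 fold change without KO4 was 0.36. Abat had 183 CPM in KO4, with the other KO libraries at 100.3 to 111 CPM. Fcor had 43.2 CPM in KO4, with the other KO libraries at 29.6 to 30.5 CPM. It was named for a profile like that of Aldh3b1, so its KO4 value is not separate from that of Aldh3b1. Gkap1 had 26.9 CPM in KO2, with the other KO libraries at 21.6 to 21.96 CPM. Cbr1 had 49.1 CPM in WT3, with the other WT libraries at 43.9 to 44.3 CPM.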

How the results depend on the processing

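Of all genes, 60 were called; DESeq2 called 810, the fit with the replicate block 14, the fits without 1 library 0 to 290 and the fit without KO2 and KO3 3. Of the 10 ALDH genes 0 were called except with DESeq2, which called 1 (Aldh1a1). The block did not bring any of them past the threshold. Their median log2 fold change of 0.16 was 0.11 to 0.22 with 1 library left out. Directions turned for 3 genes with values near 0, and the cause was not tested. The log2 fold change of Aldh6a1 was 0.0068 with RLE scaling and with DESeq2, 0.015 with upper quartile scaling, 0.018 with library totals, 0.00062 with a filter of 1 CPM, 0.11 without KO2 and KO3 and -0.12 to 0.073 with 1 library left out. That of Aldh1a3 was 0.0046 with upper quartile scaling, 0.0091 with library totals and -0.15 to 0.057 with 1 library left out, and that of Aldh9a1 -0.030 to 0.052 with 1 library left out. The summed FPKM of KO minus WT was 113 and 87.0 to 131 with 1 library left out. Libraries of the same replicate number had correlations of 0.184, -0.106, -0.254 and 0.0577 for numbers 1 to 4. KO1 and WT1 were each other's best match, and so were KO2 and WT4, which differ in number. These values cannot show whether the numbers pair mice. At 19 to 52 reads a library Aldh1b1 could not be judged.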
